A study of Mus musculus with 2 samples.

Results

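The Cip/Kip family comprises 3 inhibitors of cyclin-dependent kinases, p21 (Cdkn1a), p27 (Cdkn1b) and p57 (Cdkn1c), and these 3 genes were taken by symbol from the 32285 genes counted in 2 single-cell RNA-seq libraries of mouse limb muscle. One library came from mice given Maraviroc (MVC), a small-molecule drug, and the other from mice given the vehicle, DMSO. Both groups were aged C57BL/6 mice injected intraperitoneally. The labels give no dose, and the study describes the cells after its high dose, short term regime. Live mononuclear cells were sorted after lysis of red blood cells, so that intact muscle fibres were not part of the sample. The number of mice behind each library is not given in the sources used here, and each group held 1 library, so no difference below could be set against the spread between mice and no p-value is given.

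Proteins of the Cip/Kip family bind cyclin and kinase together and thereby hold cells back from entering S phase. p21 is known as a target of the tumour suppressor p53 and as a marker of senescent and stressed cells, p27 is known to keep resting cells out of the cycle and is controlled in large part by protein breakdown, and p57 is expressed from the maternal allele of an imprinted region and is known for quiescence of stem cells and of vessels. All 3 transcripts were measured here, not the proteins.

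In the GRCm38 genome (GENCODE M21), Cdkn1a (ENSMUSG00000023067) lies on chromosome 17 from 29090976 to 29100727 on the plus strand, Cdkn1b (ENSMUSG00000003031) on chromosome 6 from 134920401 to 134925513 on the plus strand, and Cdkn1c (ENSMUSG00000037664) on chromosome 7 from 143458339 to 143461050 on the minus strand. The RefSeq promoter table (GRCm38.p6) held 2 of the 3 genes, with 2 start sites for Cdkn1a. The 250 bases before each start site are shown because p53 targets and the cell cycle genes were compared with the members below. Capitals mark matches, searched on both strands, to 1 of 4 motifs. The core of a p53 half-site was searched as ACATGTC. The GC box was searched as GGGCGG. The CCAAT box was searched by those 5 letters, and the TATA box as TATAAA. No motif contains another. The letters were chosen with these sequences known.
Cdkn1a, upstream start site, chr17:29090729-29090978, plus strand: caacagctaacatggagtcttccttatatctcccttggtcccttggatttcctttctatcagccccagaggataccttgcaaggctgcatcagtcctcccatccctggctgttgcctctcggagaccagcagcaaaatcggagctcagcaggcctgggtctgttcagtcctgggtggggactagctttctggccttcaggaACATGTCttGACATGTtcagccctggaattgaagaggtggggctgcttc
Cdkn1a, downstream start site, chr17:29093519-29093768, plus strand: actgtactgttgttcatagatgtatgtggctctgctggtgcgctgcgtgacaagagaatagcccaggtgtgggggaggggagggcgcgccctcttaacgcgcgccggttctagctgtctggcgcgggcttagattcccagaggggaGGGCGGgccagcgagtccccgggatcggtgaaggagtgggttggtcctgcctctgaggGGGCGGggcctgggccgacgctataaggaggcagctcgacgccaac
Cdkn1b, chr6:134920151-134920400, plus strand: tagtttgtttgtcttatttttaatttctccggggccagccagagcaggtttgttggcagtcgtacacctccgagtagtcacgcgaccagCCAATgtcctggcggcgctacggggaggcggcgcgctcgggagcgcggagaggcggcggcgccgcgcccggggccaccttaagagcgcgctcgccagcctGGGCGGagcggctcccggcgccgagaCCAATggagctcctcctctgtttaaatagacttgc
The window of the upstream Cdkn1a start held 2 p53 half-site cores, on opposite strands, beginning 49 and 40 bases before the start site. This core was present in 1.62% of 32851 promoter windows of the same length. The downstream Cdkn1a window held 2 GC boxes, and the Cdkn1b window held 1 GC box and 2 CCAAT boxes. These motifs are common, with a GC box in 32.7% and a CCAAT box in 33.8% of all windows, against 12.4% for the TATA box. A match describes the letters and is no evidence of binding.

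Cells with at least 500 detected genes and at most 10% mitochondrial UMIs (unique molecular identifiers, which count captured transcripts) were kept, which left 5437 cells with a median of 5802 UMIs in the DMSO library and 5454 cells with a median of 5195 UMIs in the MVC library. The libraries shared 9 cell barcodes, 8 of them among the kept cells. Clustering without the 3 genes gave 13 subtypes in the lineages of interest. They were named by markers, and every name below is short for a type-like cluster (capillary EC-like and so on). The endothelial lineage (4098 cells) comprised capillary, arterial, venous and lymphatic endothelial cells (EC). The fibroblast lineage (3611 cells) comprised 4 groups of fibro-adipogenic progenitors (FAP), called adventitial, parenchymal, Gdf10/C7 and inflammatory, together with tendon-junction fibroblasts and tenocytes. The mural lineage (874 cells) comprised pericytes, smooth muscle cells (SMC) and a cluster with markers of both, SMC/pericyte, whose leading genes (Olfr1033, Gm13889, Sdc1, Lgr5) were not among those markers. For the 12 subtypes other than SMC/pericyte, at least 5 markers were higher inside the subtype than outside in each library, and 1 of the 8 SMC markers was at 0 in the MVC library. Doublet calls made up 40.2% of the SMC and 12.1% of the Gdf10/C7 FAP.

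Levels are given as CPM, the UMIs of a gene per 1e+06 UMIs of the same cells, with exact 95% Poisson intervals that cover counting error only. They are compared between cells and libraries within a gene, never between genes. Cdkn1a was measured in 23358 UMIs of the DMSO and 12531 UMIs of the MVC library, Cdkn1b in 2897 and 2223, and Cdkn1c in 2916 and 4360.

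Among the 13 subtypes, Cdkn1a was higher in the endothelial subtypes, SMC and SMC/pericyte than in fibroblasts and pericytes. Its level was highest in capillary EC, at 1460 CPM (1431 to 1490) in the DMSO library and 994 (964 to 1023) in the MVC library. Arterial EC came next, at 1222 in the DMSO and 909 in the MVC library. SMC (917 and 448), venous EC (858 and 467), SMC/pericyte (767 and 409) and lymphatic EC (647 and 520) followed. Capillary and arterial EC were apart from each other and from all later subtypes in both libraries, whereas the intervals of SMC and venous EC overlapped. The 6 fibroblast subtypes lay lower, between 264 and 395 in the DMSO and between 115 and 234 in the MVC library. Pericytes, the other mural population, stood near the fibroblasts at 210.1 (184 to 239) in the DMSO and 184 (156 to 217) in the MVC library. The DMSO value was 400 when clusters were drawn at a finer resolution, which named a further cluster of 93 cells pericyte. In the main clusters SMC held 4.36 times (3.78 to 5.06) the pericyte level in the DMSO library and 2.43 times (2.01 to 2.96) in the MVC library. This contrast depends on the clustering, because the SMC cluster had 8 of 8 pericyte markers raised beside 6 of 8 SMC markers. With called doublets removed, the SMC level was 857 and 389. Outside these lineages, Schwann cells (513 and 252), macrophages (454 and 302) and perineurial cells (387 and 342) lay at or above most fibroblast subtypes. Of the classes with at least 30 cells in each library, B cells were lowest, at 33.4 and 28.9.

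Cdkn1b took a different order, with pericytes and SMC first. Its level was highest in pericytes at 154 CPM (131 to 179) in the DMSO and 105 (83.4 to 130) in the MVC library, and next in SMC at 132 and 99.5, with overlapping intervals in both libraries. Lymphatic EC (112 and 79.0) and Gdf10/C7 FAP (111 and 73.8) came after them. Capillary EC held 72.7 and 90.1, and SMC/pericyte, the remaining mural subtype, 84.1 and 75.4. Venous EC were lowest in the DMSO library (34.5, against 41.2 in the MVC library) and inflammatory FAP in the MVC library (30.8, against 35.7 in the DMSO library). The range over the 13 subtypes was 4.45-fold in the DMSO and 3.40-fold in the MVC library, against 6.95-fold and 8.61-fold for Cdkn1a. Outside these lineages T/NK cells had 194 and 195, Schwann cells 187 and 159, neutrophils 144 and 127, and B cells 134 and 131. In B cells Cdkn1c was close to 0, with 2 UMIs in each library.

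Cdkn1c was highest in tenocytes in the DMSO library and in capillary EC and tenocytes in the MVC library. Tenocytes had 184 CPM (165 to 205) in the DMSO and 206 (187 to 228) in the MVC library. Capillary EC had 92.4 (85.1 to 100) in the DMSO and 231 (217 to 246) in the MVC library, which placed them below tenocytes in the first and gave overlapping intervals in the second. Parenchymal FAP had 107 and 193, Gdf10/C7 FAP 111 and 183, tendon-junction fibroblasts 111 and 136, and SMC 128 and 131. The DMSO value of SMC was 72.5 with a stricter cell filter, under which a cluster led by Olfr1033 and Gm13889 was also named SMC. Outside these lineages, perineurial cells had 155 and 128. Endothelial subtypes differed widely. The arterial level of 60.2 and 95.5 was 4.63 times (2.99 to 7.40) the venous level of 13.0 in the DMSO library and 2.32 times (1.73 to 3.14) the venous level of 41.2 in the MVC library. Lymphatic EC were as low as venous EC, at 17.1 and 48.2. The UMIs were unevenly spread over cells. In parenchymal FAP of the MVC library, the tenth of cells with the most Cdkn1c UMIs carried 53.7% of them, and 1 cell held 87.

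The order of the 13 subtypes was much alike in the 2 libraries, with a Spearman rho of 0.95 for Cdkn1a, 0.91 for Cdkn1b and 0.84 for Cdkn1c. The points share clusters, capture method and markers, and these values only describe the 2 libraries.

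**Figure D1:**
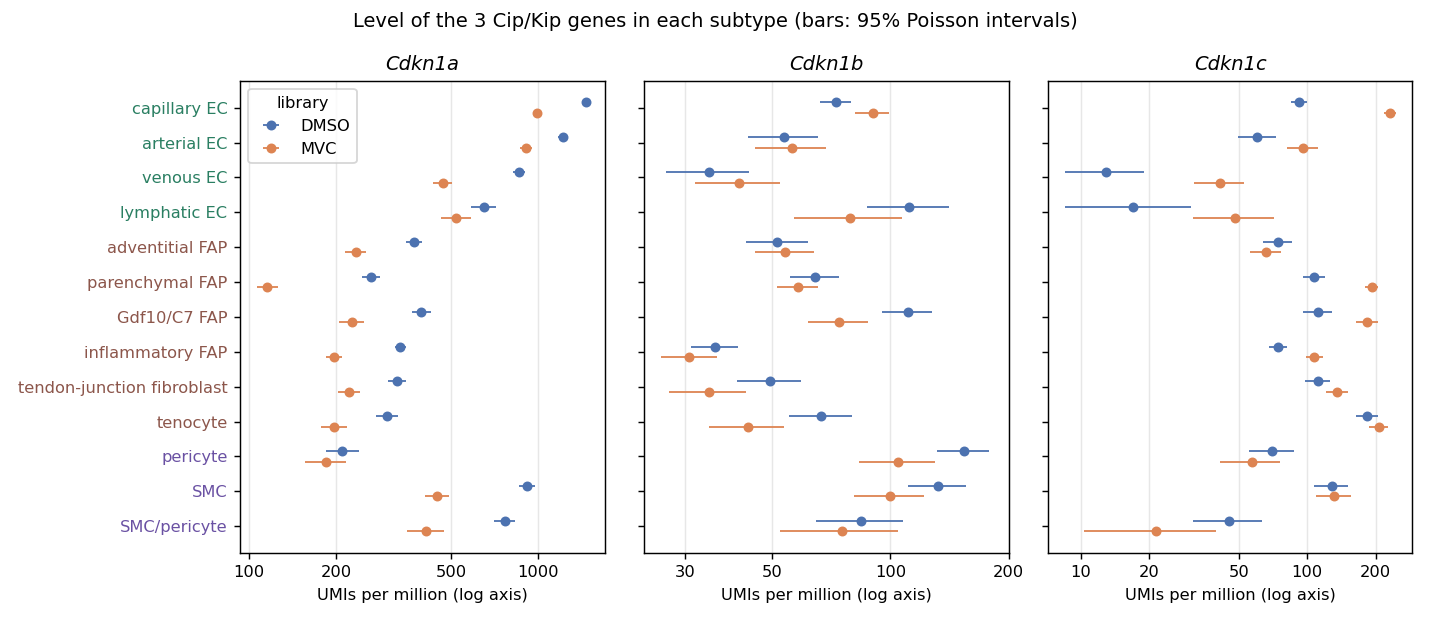
Level of each gene (CPM, log axis, a separate axis for each gene) in the 13 subtypes, with 1 point for each library and 95% Poisson intervals as bars. Subtype names are colored by lineage. Cdkn1a points of endothelial cells and SMC lie to the right of the fibroblasts, Cdkn1b is highest in pericytes, and Cdkn1c is highest in tenocytes in the DMSO library and in capillary EC and tenocytes in the MVC library.

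The share of cells with at least 1 UMI was compared after each cell was thinned to 2000 UMIs, leaving out shallower cells. At that depth 79.1% of 2027 endothelial cells (77.3 to 80.9, exact binomial interval) held Cdkn1a in the DMSO library and 59.6% of 1541 (57.1 to 62.03) in the MVC library. Before thinning the shares were 86.2% and 69.0%. Thinning left out 252 and 278 endothelial cells. Fibroblasts had 36.8% and 24.5% of cells with Cdkn1a, and mural cells 44.2% and 31.3%. B cells, whose depth was like that of the mural cells (medians of 5071 and 5052 UMIs, against 5159 and 4044), gave 6.47% and 3.53%, so the 3 lineages stood well above that level.

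For Cdkn1b the thinned shares were 12.5% and 13.2% in endothelial cells, 10.99% and 8.66% in fibroblasts and 23.3% and 21.5% in mural cells, in the DMSO and MVC libraries. Those of B cells, 21.9% and 18.8%, were as high as the mural shares. For Cdkn1c the share was 13.4% (11.9 to 14.9) of endothelial cells in the DMSO and 25.4% (23.2 to 27.6) in the MVC library, 17.1% and 22.1% of fibroblasts, and 13.6% and 12.4% of mural cells. B cells gave 1 of 201 cells in the DMSO library and 0 of 85 in the MVC library, which allows a share of up to 3.53% counted as 3 cells, or 4.25% by the exact interval. Venous EC, with 1.84% (0.505 to 4.65) and 5.35% (2.59 to 9.61), overlapped that background in both libraries. At 2000 UMIs, 20.2% of endothelial, 49.5% of fibroblast and 42.2% of mural cells had no UMI of any of the 3 genes.

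Capillary EC were made of 3 clusters that differed in Cdkn1a. Cluster 0 (1195 DMSO and 755 MVC cells), led by Slc1a1, Cldn5 and Id1, held 1693 CPM of Cdkn1a (1658 to 1730) in the DMSO library and 1420 (1377 to 1465) in the MVC library. Cluster 2 (341 and 442 cells), led by Depp1, Rassf9 and Ablim3, held 615 (572 to 660) and 185 (163 to 208). Both had raised capillary markers, 7 of 8 and 8 of 8. Cluster 18, of 184 cells with a median of 1270 UMIs, held 782 and 814. Cells of cluster 0 were thus the richest in Cdkn1a in the tissue, with 20.4% of thinned cells at 6 or more UMIs in the DMSO and 15.6% in the MVC library, against 2.02% and 0.549% in cluster 2. The other 2 members did not follow Cdkn1a. Cdkn1b was 67.2 and 78.2 in cluster 0 and 101 and 112 in cluster 2, and Cdkn1c was 88.4 and 209 in cluster 0 and 107 and 279 in cluster 2. Because the clusters were drawn on the transcriptomes of the same cells, these are descriptions and not tests.

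Clusters of adventitial FAP also differed in Cdkn1a. In cluster 17, led by Sbsn, Dmkn and Sv2c, Cdkn1a was 463 in the DMSO and 343 in the MVC library, and in cluster 15 it was 227 and 120. Cdkn1b went the other way, at 21.5 and 36.3 in cluster 17 and 99.6 and 72.1 in cluster 15.

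**Figure D2:**
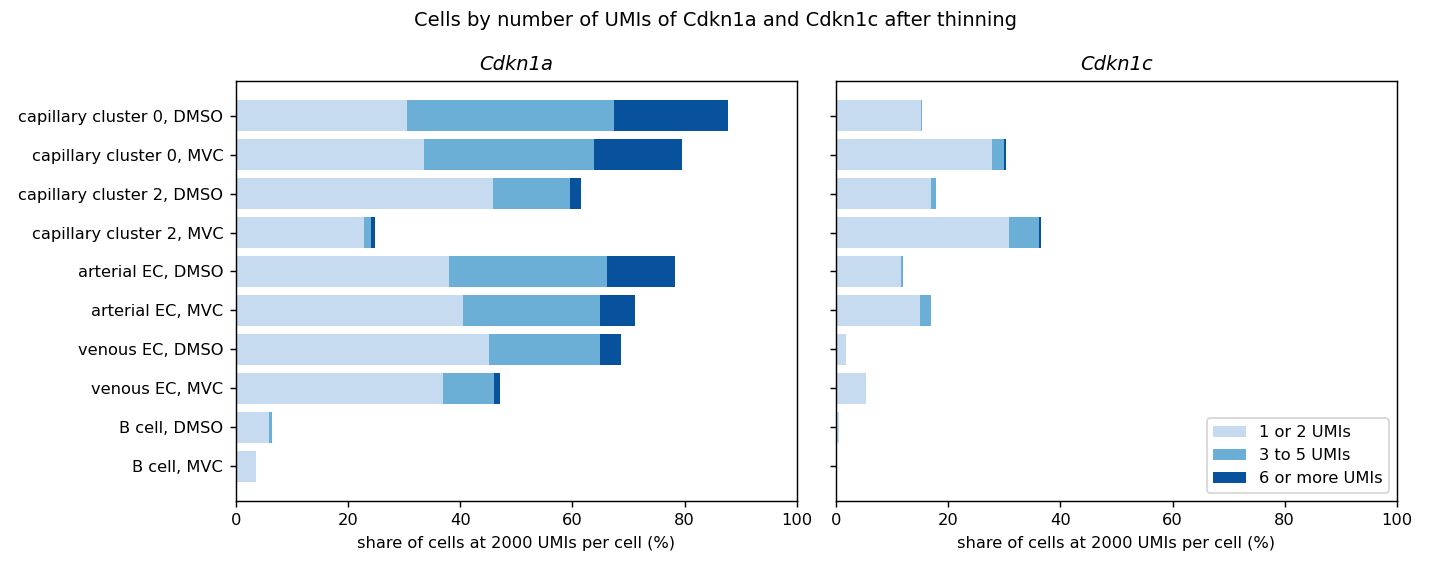
Share of cells (%, x axis from 0 to 100) with 1 or 2, 3 to 5 and 6 or more UMIs of Cdkn1a (left) and Cdkn1c (right) after thinning to 2000 UMIs, in capillary clusters 0 and 2, arterial EC, venous EC and B cells of each library. For Cdkn1a the bar of cluster 2 ends at 61.6% in the DMSO and 24.7% in the MVC library, whereas that of cluster 0 ends at 87.8% and 79.5%, and for Cdkn1c both clusters have longer bars in the MVC library.

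Whether MVC went along with a different level of the 3 inhibitors was asked within each lineage. Ratios are MVC over DMSO, with exact conditional 95% intervals for counting error, and the 1.5-fold mark is used as a size and not as a test. Cdkn1a was lower in the MVC library in all 3 lineages. In endothelial cells it was 1263 in the DMSO and 845 in the MVC library, a ratio of 0.669 (0.650 to 0.689). In fibroblasts it was 328 and 186, a ratio of 0.567 (0.543 to 0.592), and in mural cells 608 and 346, a ratio of 0.569 (0.522 to 0.619). It was lower by at least 1.5-fold in fibroblasts and mural cells and came just short of that in endothelial cells, while 6.47% of 14015 genes in endothelial cells, 5.5% of 15987 in fibroblasts and 6.14% of 11650 in mural cells were lower to that extent.

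Cdkn1a was lower in the MVC library in 13 of 13 subtypes and by at least 1.5-fold in 8 of them. Of 4985 genes measured in all 13 subtypes, 0.461% were lower by at least 1.5-fold in at least 8. The smallest ratio was that of parenchymal FAP at 0.437 (0.391 to 0.487), with 264 CPM in the DMSO and 115 in the MVC library. SMC followed at 0.489 (0.435 to 0.548). Pericytes had 0.877 (0.708 to 1.08), an interval that includes 1. Within the capillary EC the ratio was 0.839 (0.808 to 0.871) in cluster 0 and 0.300 (0.260 to 0.345) in cluster 2, and cluster 2 made up a larger part of the MVC capillary cells than of the DMSO ones. In cluster 18 it was 1.04 (0.767 to 1.40).

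Cdkn1c went the opposite way in endothelial cells and fibroblasts. Endothelial cells had 68.1 in the DMSO and 155 in the MVC library, a ratio of 2.28 (2.08 to 2.50), and 11.1% of genes in these cells were higher by at least 1.5-fold. Fibroblasts had 100.2 and 146, a ratio of 1.46 (1.37 to 1.55), under the 1.5-fold mark that 13.2% of genes passed. In fibroblasts the median gene itself was shifted by 0.12 on the log2 scale, against 0.05 in endothelial and 0.09 in mural cells. Mural cells had 84.4 and 81.5, a ratio of 0.965 (0.792 to 1.17), in a lineage where 14.6% of genes were higher by at least 1.5-fold. This ratio changed sides with the processing. On the log2 scale it was -0.05, and 0.29 with a stricter cell filter.

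The Cdkn1c ratio was at least 1.5 in 6 of 13 subtypes, which 1.71% of the 4985 genes reached. These were the 4 endothelial subtypes, parenchymal FAP (1.80, 1.58 to 2.05) and Gdf10/C7 FAP (1.64, 1.37 to 1.98). Capillary EC had the most UMIs behind it, a ratio of 2.50 (2.26 to 2.78) on 598 and 1022 UMIs, and it was of like size in cluster 0 (2.36) and cluster 2 (2.61), where Cdkn1a differed. In venous EC the ratio of 3.16 (1.98 to 5.20) rested on 26 and 65 UMIs, at shares of cells that overlapped the B cell background, and in lymphatic EC that of 2.82 (1.34 to 6.35) on 11 and 25. Tenocytes, with the highest DMSO level, had 1.12 (0.966 to 1.30), adventitial FAP 0.885 (0.710 to 1.10) and SMC 1.02 (0.792 to 1.31), intervals that all include 1. SMC/pericyte was the 1 subtype lower by that size, at 0.475 (0.209 to 0.983), on 34 and 10 UMIs.

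Cdkn1b stayed within 1.5-fold in all 3 lineages. The ratio was 1.13 (1.01 to 1.26) in endothelial cells, with 64.9 and 73.0 CPM, 0.854 (0.778 to 0.938) in fibroblasts, with 55.3 and 47.3, and 0.754 (0.634 to 0.894) in mural cells, with 128 and 96.3. Tenocytes were the 1 subtype of 13 past the 1.5-fold mark, at 0.650 (0.486 to 0.866), where 11.7% of all genes were lower to that extent. Gdf10/C7 FAP came just short of it at 0.667 (0.528 to 0.840). Pericytes (0.681, 0.517 to 0.891), tendon-junction fibroblasts (0.699, 0.519 to 0.938) and lymphatic EC (0.707, 0.469 to 1.05) were close to it as well. Cdkn1b was lower in the MVC library in 9 of the 13 subtypes and higher in 4.

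**Figure D3:**
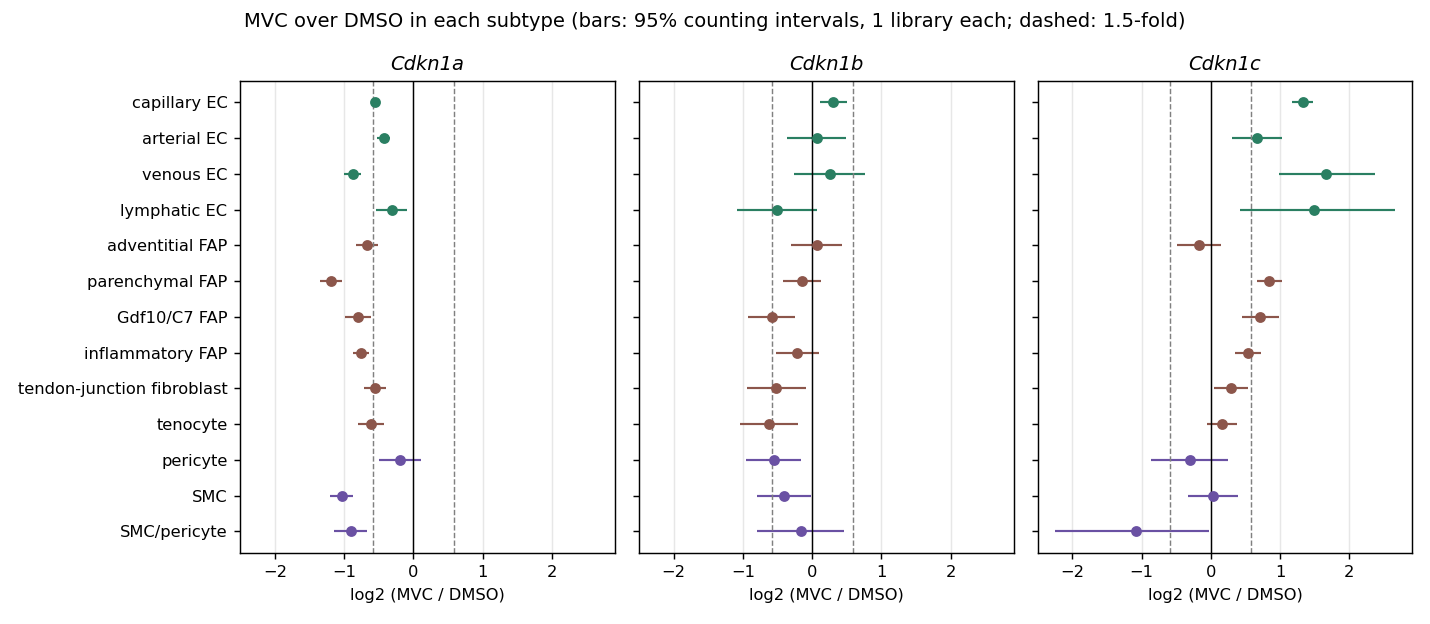
Log2 ratio of MVC over DMSO for each gene in the 13 subtypes (points colored by lineage), with 95% counting intervals as bars, a solid line at 0 and dashed lines at 1.5-fold. Every Cdkn1a point lies left of 0, the 4 endothelial Cdkn1c points lie right of the upper dashed line, and most Cdkn1b points lie between the dashed lines.

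Other measures differed between the libraries beside these ratios. Of 16 early-response and heat-shock genes, which are induced when tissue is dissociated, 0 were past 1.5-fold in either direction in endothelial cells, 2 were lower in fibroblasts and 3 in mural cells. Of all genes, 6.47% were lower to that extent in endothelial cells, 5.5% in fibroblasts and 6.14% in mural cells. The summed level of the 16 genes was 25193 and 27213 CPM in endothelial cells, 22637 and 25050 in fibroblasts and 25445 and 21162 in mural cells of the DMSO and MVC libraries. In capillary cluster 2, where Cdkn1a had its smallest ratio, the sum was 30810 and 25908, and 3 genes were lower past 1.5-fold. In cluster 0 it was 33247 and 40210, and 3 genes were higher past 1.5-fold. In capillary EC as a whole, 7.19% of all genes were lower and 13.4% higher past that mark. Across subtypes, the list and Cdkn1a were lower together in some and differed in others. In parenchymal FAP 4 of 16 genes were lower past 1.5-fold and in SMC 5 of 16, where 5.64% and 9.69% of all genes were. In Gdf10/C7 FAP 4 were lower and 1 higher, in SMC/pericyte 3 and 0, and in inflammatory FAP 2 and 1. Of all genes, 7.59%, 12.1% and 6.37% were lower in these 3 subtypes and 16.5%, 15.7% and 11.2% higher. Cdkn1a was lower past that mark in each of the subtypes just named as well. In venous EC and tenocytes, where Cdkn1a was also lower past that mark, 0 were lower and 4 higher in each, and in adventitial FAP 1 was lower and 4 higher. Of all genes, 14.4% were lower and 11.6% higher in venous EC, 11.7% and 13.1% in tenocytes, and 8.18% and 14.3% in adventitial FAP. In pericytes, where the Cdkn1a interval included 1, 9 of 16 were lower, beside 10.6% of all genes. The median mitochondrial share was 1.47% and 1.43% in endothelial cells, 1.56% and 1.84% in fibroblasts and 2.21% and 2.58% in mural cells. The part of these differences in the Cip/Kip ratios was not tested.

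The lists of neighbouring pathway genes are described by how many of their measured genes (at least 20 UMIs) passed 1.5-fold, beside the percentages for all genes given above. Among 15 p53 targets, 1 was lower and 0 higher in endothelial cells, 3 lower and 0 higher in fibroblasts, and 3 lower and 1 higher in mural cells. The median log2 ratio of the list was -0.07, -0.0034 and -0.24, against 0.05, 0.12 and 0.09 for all genes. Most of the list stayed within 1.5-fold, and its median lay below that of all genes in each lineage. Whether p53 had a part in the Cdkn1a ratio was not tested. Gdf15, a stress-induced cytokine, had the largest difference in endothelial cells, with 164 CPM in the DMSO and 58.5 in the MVC library (ratio 0.356), and also in fibroblasts, with 20.6 and 6.78 (0.330), but not in mural cells, with 97.3 and 100.4 (1.03). Eda2r, a receptor of the TNF receptor family, was 94.8 and 65.4 in endothelial cells. The genes with the most UMIs there, Btg2 and Plk2, had 908 and 949, and 333 and 334. In mural cells Btg2 was 1221 and 818, and Zmat3, which had 18 and 28 UMIs there, was higher. Trp53inp1, a p53-induced nuclear protein, was lower in fibroblasts (0.558) and mural cells (0.522) and higher in endothelial cells (1.40).

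Of the cyclins and cyclin-dependent kinases, the partners that Cip/Kip proteins bind, 2 of 12 measured genes were lower past 1.5-fold in endothelial cells, 3 of 11 were higher in fibroblasts and 1 of 10 was higher in mural cells. The D-type cyclins drive entry into the cycle from rest. Ccnd2, with the most UMIs, had 190 and 256 in endothelial cells and Ccnd1 had 52.1 and 75.6. In fibroblasts, where Ccne1 gave 4 and 21 UMIs, Ccnd1 was 12.8 and 25.2 and in mural cells 7.64 and 14.9. The 2 endothelial genes past the mark were the mitotic cyclins Ccnb1, with 16 and 5 UMIs, and Ccnb2, at 14.6 and 9.03. The median of the list was -0.14 in endothelial cells, 0.10 in fibroblasts and 0.07 in mural cells.

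Inhibitors of the INK4 family and the Rb and E2f genes, which act on the same checkpoint, were past 1.5-fold in few cases. In endothelial cells 1 of 11 was lower and 2 higher, in fibroblasts 0 and 2 of 11, and in mural cells 0 and 0 of 8. Cdkn2a, the p16 gene used as a senescence marker, was sparse, with 9 and 21 UMIs in endothelial cells and 29 and 39 in fibroblasts. E2f1, an activator of S phase genes, had 34 and 13 UMIs in endothelial cells, and in fibroblasts Cdkn2b gave 30 and 59 and Rbl1 gave 32 and 62. Cdkn2d, which encodes p19 of the INK4 family, had 85.0 and 58.6 in endothelial cells and Rb1 had 118 and 131.

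Genes of S phase and mitosis were sparsely counted. In endothelial cells 3 of 15 measured genes were lower and 3 higher past 1.5-fold, in fibroblasts 4 of 13 and in mural cells 2 of 8 were lower, and 0 were higher in either. Pcna, the sliding clamp of DNA replication and the gene with the most UMIs, had ratios of 0.777, 0.791 and 0.740 in the 3 lineages. The largest differences in endothelial cells were those of Cenpf, with 2 and 25 UMIs, and Cdc20, with 30 and 9. Mki67, a proliferation marker, gave 157 UMIs in 2279 DMSO and 133 in 1819 MVC endothelial cells, and 19 and 20 in all fibroblasts. These counts are not scaled to the unequal UMI totals and give no direction by themselves. Most measured genes of the list stayed within 1.5-fold in each lineage, but its median lay below that of all genes. The median log2 ratio was -0.15 in endothelial cells, -0.31 in fibroblasts and -0.25 in mural cells, against 0.05, 0.12 and 0.09.

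The regulators of p27, such as the Foxo factors that induce it and the Skp2 complex that degrades it, mostly stayed within that range too. Of 10 measured genes 0 passed 1.5-fold in endothelial cells, 1 was lower in fibroblasts (Foxo4, 6.95 and 3.80) and 1 of 9 was lower in mural cells (Cks2, 13.5 and 5.40). Foxo1 had 323 and 361 in endothelial cells.

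Among the neighbours of Cdkn1c in its imprinted region on chromosome 7, Igf2, a growth factor expressed from the paternal allele, was higher in the MVC library in all 3 lineages. It had 62.5 and 107 in endothelial cells (1.71, 1.54 to 1.89), 5.72 and 12.9 in fibroblasts (2.26, 1.77 to 2.89) and 53.5 and 105 in mural cells (1.97, 1.60 to 2.43). Kcnq1ot1, the noncoding RNA transcribed from within Kcnq1 that silences the domain of Cdkn1c in cis, did not share this, with ratios of 1.01, 1.03 and 1.01. Past 1.5-fold were 2 of 8 measured neighbours in endothelial cells, 3 of 9 in fibroblasts (2 higher and 1 lower) and 2 of 6 in mural cells. Beside Igf2 these were sparse genes, Phlda2 with 31 and 39 UMIs in endothelial cells and 13 and 7 in fibroblasts, H19 with 6 and 33 in fibroblasts, and Kcnq1 with 6 and 34 in mural cells. Igf2 was a leading gene of the arterial EC cluster. It had 16 and 13 UMIs in capillary cluster 0 and 5 and 12 in cluster 2. Capillary EC held most endothelial Cdkn1c UMIs, 598 of 744 in the DMSO and 1022 of 1272 in the MVC library. The part of the cell mix in the endothelial Igf2 ratio was not tested.

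Genes whose levels most resembled each member were ranked by Pearson's r of log2 (CPM + 10), averaged over the libraries, across 20 subtypes and classes, among 10382 genes with at least 500 UMIs. For Cdkn1a they were Rhoc, Midn, Ctnna1, Arhgap23 and Slc39a1 (r from 0.843 to 0.866). For Cdkn1b they were 1810026B05Rik, Supt20, Tsc22d4, Abhd18 and Nt5dc1 (0.847 to 0.901). For Cdkn1c they were Copz2, Phactr1, Ccn1, Amotl2 and Plod2 (0.894 to 0.920). The members were little alike among themselves, with r of -0.32 for Cdkn1a and Cdkn1b, 0.44 for Cdkn1a and Cdkn1c and -0.34 for Cdkn1b and Cdkn1c. These correlations run over cell classes that share 2 libraries and are given as a description.

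Co-detection asked whether a cell with 1 inhibitor was more or less likely to hold another. At 2000 UMIs per cell, the number of cells with both genes was set against the number given by their separate shares within each subtype and library. In endothelial cells Cdkn1a and Cdkn1c were seen together in 451 of 3568 cells, where 457 were expected, a quotient of 0.988 (0.899 to 1.08, Poisson interval). Cdkn1a and Cdkn1b gave 295 cells with 324 expected (0.911, 0.810 to 1.02), and Cdkn1b and Cdkn1c gave 99 with 91.1 expected (1.09, 0.883 to 1.32). The inhibitors thus met in endothelial cells about as often as their shares gave. Because 79.1% of DMSO and 59.6% of MVC endothelial cells held Cdkn1a, quotients with Cdkn1a could rise only a limited way above 1. Capillary clusters 0 and 2 differed in opposite directions in Cdkn1a and Cdkn1b. The expected numbers were set by subtype, so the 0.911 does not separate a relation within cells from a mix of clusters.

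Fibroblasts held 180 cells with Cdkn1a and Cdkn1c, where 192 were expected (0.939, 0.807 to 1.09). Cdkn1b and Cdkn1c gave 70 cells with 67.6 expected (1.04, 0.807 to 1.31). The lowest quotient was that of Cdkn1a and Cdkn1b in fibroblasts, with 80 cells and 99.5 expected (0.804, 0.638 to 1.001), and over 10 other draws of the thinning it averaged 0.877 and ranged from 0.757 to 0.978. In mural cells the quotient was 1.004 for Cdkn1a with Cdkn1b, 1.202 for Cdkn1a with Cdkn1c and 1.003 for Cdkn1b with Cdkn1c. Each of the 9 intervals included 1, which leaves room for departures of the size of the intervals. Called doublets made up 18.8% of the fibroblasts with both Cdkn1a and Cdkn1b, against 4.67% of all fibroblasts at that depth, and 21.3% of the mural cells with both Cdkn1a and Cdkn1c, against 13.0% of all mural cells. All 3 genes were found together in 53 endothelial, 16 fibroblast and 9 mural cells.

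Among the 20 named subtypes and classes, intervals lay away from 1 in Schwann cells only, which were singled out after their values were seen. All 3 pairs were above 1 there, and Cdkn1b and Cdkn1c were together in 15 of 194 Schwann cells where 5.91 were expected (2.54, 1.42 to 4.19). With the 2 Schwann clusters taken apart, 12.1 cells were expected and the quotient was 1.24 (0.694 to 2.04). The smaller cluster, 24, with 18 DMSO and 26 MVC cells, had higher levels of all 3 inhibitors than the other Schwann cluster. It had 1340 (1134 to 1573) and 750.3 (610 to 913) CPM of Cdkn1a, 652 (511 to 820) and 485 (374 to 619) of Cdkn1b, and 206 (130 to 308) and 296 (210 to 404) of Cdkn1c in the DMSO and MVC libraries. The other Schwann cluster, 20, had 318 and 132 of Cdkn1a, 77.9 and 81.5 of Cdkn1b, and 25.3 and 43.5 of Cdkn1c. All 3 genes were seen together in 10 of 41 thinned cells of cluster 24.

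**Figure D4:**
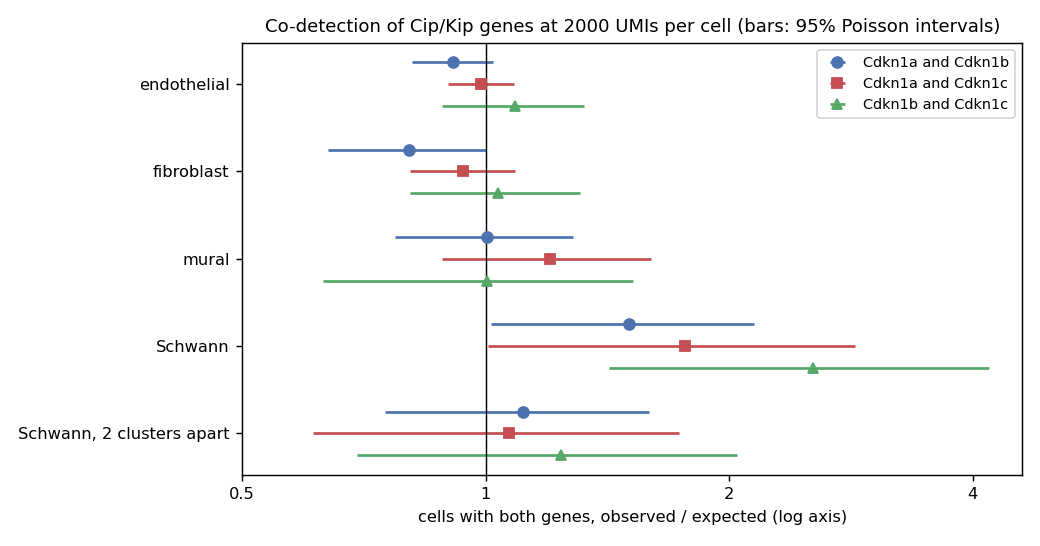
Observed over expected number of cells with both genes of a pair (log axis) in the 3 lineages and in Schwann cells at 2000 UMIs per cell, both libraries together, with 95% Poisson intervals as bars and a line at 1. The lineage bars all reach or cross 1, and the Schwann bars, which lie above 1, cross it once the 2 Schwann clusters are kept apart.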

How the data were processed

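The deposited values were raw UMI counts per gene and cell barcode, which the authors produced with Cell Ranger (version 7.0.0 in the headers) and left unnormalised. Seurat 5.0.1 and mm10 are named in the submitters' processing notes, and the handling of intronic reads is not given in the sources used here. Groups followed the treatment per the labels. Barcodes under 500 genes or over 10% mitochondrial UMIs were dropped. Cells were clustered (30 principal components of 2000 variable genes without the members, 20 neighbours, Leiden at resolution 1, leidenalg 0.10.2, scipy 1.17.1) and clusters named from at least 3 raised markers, so the names were rebuilt here and need not match the study's own. A cluster of 465 low-UMI cells stayed unnamed. Doublets were called at 0.8% per 1000 cells and kept in the main values. Free RNA was not corrected. Levels, shares and ratios carry exact 95% intervals, and a fold change needed 20 UMIs. Co-detection used 1 random draw of 2000 UMIs per cell. The scripts were tested on simulated data. The members, lists and rules were chosen with earlier results of these data known, and the early-response list and the counts of subtypes under alternatives were added last. Genes named from a list were its 2 with the most UMIs and its 2 with the largest differences in a lineage, and others were named after their values were seen.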

Additional observations from a re-analysis of the deposited data

Results flagged for a closer look

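Members whose ratio of MVC over DMSO had intervals on opposite sides of 1 in different subtypes were picked out, and with 1 library per group the difference was not tested. The Cdkn1b ratio was 1.24 in capillary EC and 0.65 in tenocytes. The Cdkn1c ratio was 3.16 in venous EC and 0.475 in SMC/pericyte. The unnamed low-UMI cluster was left out of the main comparisons of subtypes and lineages. It held 59.8 CPM of Cdkn1c in the MVC library (29 UMIs in 375 cells). In 90 DMSO cells it held 0 UMIs, where 3 counts would be 20.9 CPM.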

How the results depend on the processing

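Cell filter, doublet removal, cluster resolution, centring within library, averaging over cells, scaling and thinning were varied. Of 57 log2 ratios recomputed, 50 stayed within the main interval and none with a main size past 1.5-fold changed sign. Scaling by the median gene gave -0.62 for Cdkn1a in endothelial cells, -0.94 for Cdkn1a in fibroblasts and 0.43 for Cdkn1c in fibroblasts, averaging over cells gave 0.44 for Cdkn1c in fibroblasts and -0.45 in mural cells, and the stricter filter gave 0.29 for Cdkn1c in mural cells, opposite in sign to the main value. Counting the unnamed cluster as endothelial, added after seeing the data, gave -0.63 for Cdkn1a. Of 72 co-detection values, 69 stayed within the main interval. Cdkn1a with Cdkn1b gave 1.03 without thinning and 1.05 at 1000 UMIs in endothelial cells, and 1.05 without thinning in fibroblasts. Of 384 subtype levels, 344 stayed within their interval and 2 moved by over 1.5 times. Cdkn1a in DMSO pericytes was 400 at resolution 2, and Cdkn1c in DMSO SMC was 72.5 with the stricter filter. In both cases the name covered other clusters than in the main values. The number of subtypes with Cdkn1a lower past 1.5-fold ran from 7 to 9, and with Cdkn1c higher from 6 to 7. No paired analysis was possible because each group held 1 library. Depth limits the venous, lymphatic and SMC/pericyte Cdkn1c values most, which rest on 10 to 65 UMIs.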
